A study of Mus musculus with 6 samples.

Results

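The 10 genes described here encode isoforms of 4 sarcomere protein families: the alpha-actinins Actn2 and Actn3, the myozenins Myoz1, Myoz2 and Myoz3, the myosin-binding proteins C Mybpc1 and Mybpc2, and the tropomyosins Tpm1, Tpm2 and Tpm3. They were chosen by gene symbol, and all 10 were found among the 55416 genes of the count table and kept among the 15623 genes that passed the filter on low counts. The tissue was tibialis anterior (TA), a fast muscle of the lower leg, from 3 wild-type (WT) and 3 SELENOW knockout (KO) mice that had aged naturally to 24 months. Both lines were kept on a C57BL/6N background, aged mice were male, and the KO was made by deleting a single exon of Selenow with a pair of guide RNAs, not by a deletion restricted to muscle. The comparison asked which transcripts differ in aged muscle when SELENOW is absent.

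Z-discs are the protein plates that anchor the thin, actin-containing filaments of neighbouring sarcomeres. Alpha-actinin crosslinks actin there, with ACTN2 present in all fibers and the heart and ACTN3 restricted to fast glycolytic fibers. Myozenins (calsarcins) bind alpha-actinin and the phosphatase calcineurin, with MYOZ2 known from slow fibers and the heart, and MYOZ1 and MYOZ3 from fast fibers. Tropomyosin lies along the actin filament and, with troponin, sets when myosin can bind; TPM1 and TPM2 are the main forms of fast muscle and TPM3 is the slow form. Myosin-binding protein C sits on the thick filament, as a slow form (MYBPC1) and a fast form (MYBPC2).

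Values are given as CPM, counts scaled to a common library size with TMM factors, which correct for differences in library composition, and as CPM per kilobase (kb) of the deposited gene length where genes are compared with each other. The libraries held between 25351976 and 29111213 counts, and mitochondrially encoded genes took 29.1% to 37.3% of them in WT and 35.4% to 40.3% in KO. WT replicates 2 and 3 carry a number in the table and the remaining WT library does not, so it is called the unnumbered WT library. The targeted gene, Selenow, ran from 219 to 268 CPM in WT and from 193 to 212 in KO, so its libraries did not overlap, and the genotypes differed by -0.25 on the log2 scale (edgeR quasi-likelihood, adjusted p = 0.604). The deleted exon itself is not visible in counts per gene. Each library is labelled as a separate sample, with no word on shared litters or batches. The p values set the difference between genotypes against the spread between these samples, which is estimated partly from all genes together.

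Upstream sequence was read for the genes at the ends of the range of levels and for the gene with the largest difference between genotypes. RefSeq promoter windows on build GRCm38.p6 were matched for 7 of the 10 genes (Actn2, Mybpc1, Mybpc2, Myoz2, Tpm1, Tpm2 and Tpm3), with 2 start sites for Tpm3. The 250 bases before the start site are shown 5′ to 3′ on the gene's strand for Myoz2 (chr3:123034988-123035237, minus strand), Tpm1 (chr9:67049214-67049463, minus strand), Tpm2 (chr4:43523555-43523804, minus strand) and the start sites of Tpm3 (chr3:90072401-90072650 and chr3:90079271-90079520, plus strand), in lower case with motif matches in capitals.
Myoz2: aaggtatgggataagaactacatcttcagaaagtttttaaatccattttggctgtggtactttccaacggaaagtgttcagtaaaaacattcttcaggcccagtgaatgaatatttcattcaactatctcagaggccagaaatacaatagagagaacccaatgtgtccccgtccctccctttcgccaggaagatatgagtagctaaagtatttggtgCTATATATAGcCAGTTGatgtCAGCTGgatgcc
Tpm1: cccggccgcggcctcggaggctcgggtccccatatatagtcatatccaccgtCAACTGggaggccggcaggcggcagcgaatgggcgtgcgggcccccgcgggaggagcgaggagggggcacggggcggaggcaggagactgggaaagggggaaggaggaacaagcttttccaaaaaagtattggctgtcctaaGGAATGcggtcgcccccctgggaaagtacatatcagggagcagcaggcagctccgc
Tpm2: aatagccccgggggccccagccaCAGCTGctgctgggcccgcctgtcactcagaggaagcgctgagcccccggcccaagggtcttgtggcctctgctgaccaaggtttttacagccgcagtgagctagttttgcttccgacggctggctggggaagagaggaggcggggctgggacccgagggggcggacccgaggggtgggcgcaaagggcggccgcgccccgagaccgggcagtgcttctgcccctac
Tpm3, first start: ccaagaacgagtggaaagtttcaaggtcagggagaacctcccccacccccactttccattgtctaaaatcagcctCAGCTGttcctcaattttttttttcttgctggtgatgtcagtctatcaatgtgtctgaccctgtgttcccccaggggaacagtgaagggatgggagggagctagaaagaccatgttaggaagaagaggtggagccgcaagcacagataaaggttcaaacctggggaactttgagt
Tpm3, second start: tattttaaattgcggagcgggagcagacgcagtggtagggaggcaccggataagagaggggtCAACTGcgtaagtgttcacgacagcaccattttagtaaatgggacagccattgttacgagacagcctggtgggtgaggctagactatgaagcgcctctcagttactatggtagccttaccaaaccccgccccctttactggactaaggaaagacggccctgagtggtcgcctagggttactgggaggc

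The motifs searched on both strands were the E-box CANNTG, bound by MyoD-family factors, the M-CAT motif CATTCC, bound by TEAD factors, the TATA box TATAAA, and by name the MEF2 site and the CArG box. Myoz2 had 1 MEF2 site next to 2 E-boxes close to its start, and none of the 7 other windows of these genes held a MEF2 site, which 2.92% of 32851 windows of this length had. Each of the 8 windows had at least 1 E-box, as did 66.2% of all windows. An M-CAT match was found for Tpm1 and Mybpc2 and in 12.6% of all windows, while no window of these genes held the TATAAA letters (12.4% of all windows) or a CArG box (1.47%). GC content was 40.8% before Myoz2, 65.2% before Tpm1 and 69.6% before Tpm2. These matches describe letters and not bound sites.

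The 10 genes spanned levels from among the highest in the muscle to the middle of the tested range. Per kb, Tpm1 had a CPM of 1565 ± 150 in WT (SD, n = 3), rank 56 of the 15623 tested genes, and Tpm3 had 2.44 ± 0.412 (SD, n = 3), rank 6007. Between them in WT lay Tpm2 at 1284 ± 98.4, Actn3 at 1055 ± 243, Mybpc2 at 664 ± 119, Myoz1 at 416 ± 39.9, Mybpc1 at 253 ± 12.5, Actn2 at 130 ± 11.1, Myoz3 at 40.6 ± 6.34 and Myoz2 at 3.34 ± 0.632 (CPM per kb, SD, n = 3). The gene-level values of Myoz2 and Tpm3 lay far below those of the other members of their families. Tpm3 also makes forms used outside muscle, and counts per gene do not separate its transcripts. Among neighbours in this order, the WT ranges overlapped between Tpm2 and Actn3 and between Myoz2 and Tpm3, and the KO ranges overlapped for the same neighbours. In each of the 7 other pairs of neighbours the higher gene was above the next in all 6 libraries. Gene lengths are those of all annotated exons together, so a gene whose muscle transcript uses few of them has too low a value per kb.

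**Figure D1:**
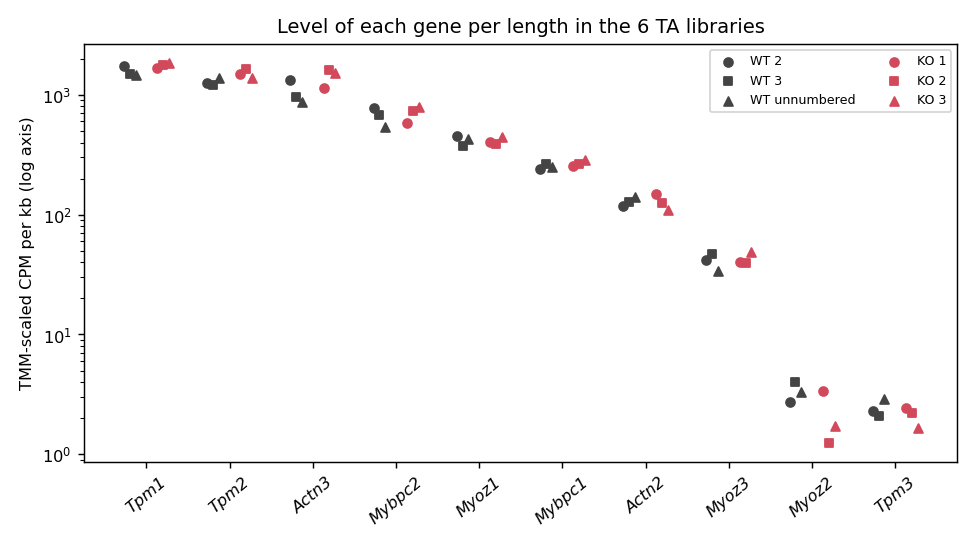
TMM-scaled CPM per kb of each gene on a log axis, with 1 point per library (WT grey, KO red, symbols mark the library). Tpm1 to Myoz3 sit in the same order in both genotypes, from 1565 to 40.6 in the WT means, while Myoz2 and Tpm3 sit together below 4 and the Myoz2 points of KO replicates 2 and 3 lie below all other Myoz2 points.

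Between genotypes, none of the 10 genes was called by edgeR's quasi-likelihood test, where a call needs a fold change over 1.5 or under 0.7 together with an unadjusted p under 0.05. None had an unadjusted p under 0.05 and none had WT and KO libraries that did not overlap. Of all 15623 tested genes, 5.35% passed the thresholds, 9.89% had an unadjusted p under 0.05, 15.4% had libraries that did not overlap, and no gene had an adjusted p under 0.05. Log2 fold changes ran from -0.65 for Myoz2 to 0.43 for Actn3, with a median of 0.076 beside -0.004 over all tested genes. DESeq2 on the same genes, where 4.94% of all genes passed, gave 1 call among the 10, Myoz2, and 2 with an unadjusted p under 0.05, Myoz2 and Actn3, where 8.26% of all genes had such a p. Myoz2 was also the 1 call with no filter (5.6% of all genes passed), with the replicate number as a block (5.73%) and without KO replicate 1 (6.66%). Without WT replicate 2, where 6.21% of all genes passed, the 1 call was Actn3, and leaving out any of the 4 other libraries gave none.

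**Figure D2:**
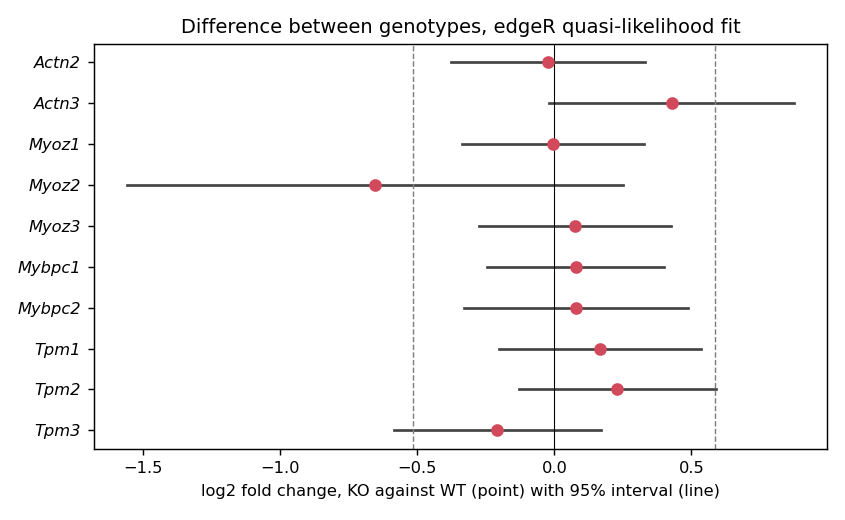
Log2 fold change of KO against WT for each of the 10 genes (point) with its 95% interval from edgeR (line), and dashed lines at fold changes of 0.7 and 1.5. All 10 intervals include 0, the Myoz2 interval is the widest, from -1.56 to 0.25, and the Actn3 interval starts at -0.018.

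Myoz2, whose protein tethers calcineurin to the Z-disc of slow and cardiac muscle, had the largest difference. It lies on chromosome 3 from 122799855 to 122828664 (minus strand, positions as in the deposited table, whose build the labels give as GRCm39). Its CPM was 9.31 and 13.6 in WT replicates 2 and 3 and 11.4 in the unnumbered WT library, against 11.6, 4.24 and 5.91 in KO replicates 1, 2 and 3. KO replicate 1 lay inside the WT range, and KO replicates 2 and 3 lay below every WT library. The fitted log2 fold change of -0.65 had a standard error of 0.37 and an adjusted p of 0.633 (edgeR quasi-likelihood). It was -1.16 without KO replicate 1 (adjusted p = 0.102 from edgeR) and -0.38 without KO replicate 2 (adjusted p = 0.948 from edgeR). These values rest on 280 to 414 counts in WT and 104 to 289 in KO libraries, and the coefficient of variation was 53.4% in KO and 18.9% in WT, where counting alone would give 7.38% and 5.50%.

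The other myozenins are fast-fiber forms and gave narrower differences. Myoz1 (chromosome 14, 20699175 to 20706608, minus strand) had a CPM of 855 and 706 in WT replicates 2 and 3, 803 in the unnumbered WT library, and 766, 742 and 847 in KO replicates 1, 2 and 3. The KO values all fell within the WT range. Its log2 fold change was -0.005 (95% interval -0.34 to 0.33, adjusted p = 0.994 from edgeR). Myoz3 (chromosome 18, 60706822 to 60724860, minus strand) ranged from 117 to 160 in WT and from 135 to 169 in KO, and its log2 fold change was 0.075 (95% interval -0.27 to 0.42, adjusted p = 0.907 from edgeR). As shares of the summed myozenin counts per kb, Myoz1 took 90.4% ± 2.03 in WT and 90.3% ± 0.426 in KO, Myoz3 8.90% ± 1.87 and 9.29% ± 0.507, and Myoz2 0.736% ± 0.197 and 0.464% ± 0.257 (SD, n = 3 per genotype). The myozenin pool was therefore almost entirely Myoz1 in both genotypes.

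Actn3, the alpha-actinin of fast glycolytic fibers, was the member with the largest positive difference. The gene lies on chromosome 19 from 4911244 to 4927937 (minus strand). Its CPM was 3859 and 2795 in WT replicates 2 and 3 and 2524 in the unnumbered WT library, and 3322, 4646 and 4380 in KO replicates 1, 2 and 3. The groups overlapped, since WT replicate 2 was above KO replicate 1, while the 2 highest values were KO and the 2 lowest were WT. With a log2 fold change of 0.43 (standard error 0.21, 95% interval -0.018 to 0.87), it had an adjusted p of 0.528 in edgeR's test. It was 0.63 without WT replicate 2 (adjusted p = 0.396 from edgeR) and 0.31 without the unnumbered WT library (adjusted p = 0.676 from edgeR). Its coefficient of variation between libraries was 23.1% in WT and 17.0% in KO, where counting alone would give 0.333% and 0.309%.

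Actn2, the alpha-actinin of all striated fibers, lies on chromosome 13 from 12284312 to 12355641 (minus strand). In WT replicates 2 and 3 it had a CPM of 452 and 488, and 536 in the unnumbered WT library, against 566, 476 and 412 in KO replicates 1, 2 and 3. KO replicate 1 was the highest and KO replicate 3 the lowest of all 6 libraries. The log2 fold change of Actn2 was -0.023 (95% interval -0.38 to 0.33, adjusted p = 0.974 from edgeR). Actn3 made up 88.7% ± 2.90 of the summed alpha-actinin counts per kb in WT and 91.5% ± 2.64 in KO (SD, n = 3 per genotype), with 86.0% in the unnumbered WT library at the low end and 93.3% in KO replicate 3 at the high end.

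**Figure D3:**
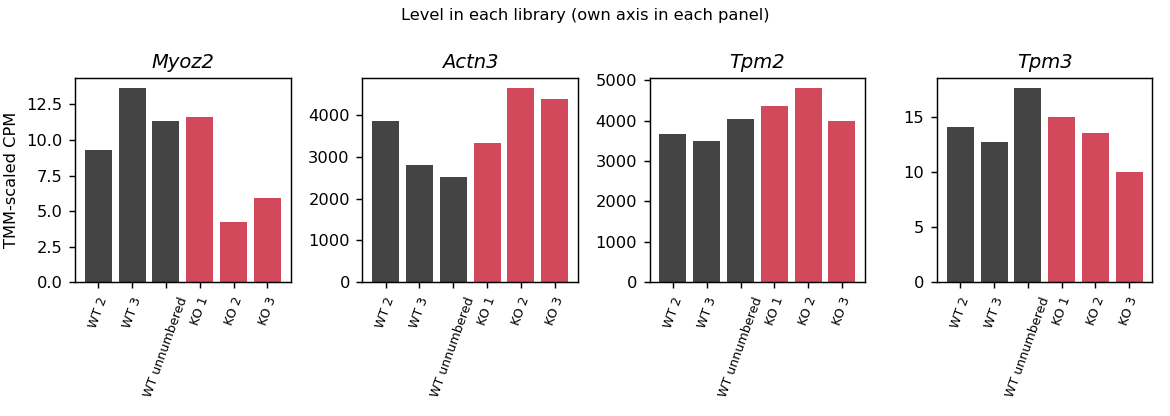
TMM-scaled CPM of Myoz2, Actn3, Tpm2 and Tpm3 in each library (bars from 0, WT grey, KO red, each panel with its own axis). Myoz2 is at 4.24 and 5.91 in KO replicates 2 and 3 and at 9.31 or above elsewhere, and Actn3 is at 4646 and 4380 there and at most at 3859 elsewhere.

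Among the tropomyosins, Tpm1, the alpha form, lies on chromosome 9 from 66929872 to 66956688 (minus strand) and had the highest counts of the 10 genes, 234197 to 362065 per library. Its CPM was 11271 and 9685 in WT replicates 2 and 3, 9500 in the unnumbered WT library, and 10770, 11465 and 11965 in KO replicates 1, 2 and 3. Only WT replicate 2 reached the KO values. The log2 fold change of Tpm1 was 0.17 (95% interval -0.20 to 0.54, adjusted p = 0.770 from edgeR).

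Tpm2, the beta form, lies on chromosome 4 from 43514711 to 43523765 (minus strand). Its CPM was 3672 and 3487 in WT replicates 2 and 3 and 4049 in the unnumbered WT library, and 4356, 4805 and 3985 in KO replicates 1, 2 and 3. Only the unnumbered WT library and KO replicate 3 changed places between the groups. The log2 fold change of Tpm2 was 0.23 (95% interval -0.13 to 0.59, adjusted p = 0.676 from edgeR).

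Tpm3, the gene of slow tropomyosin, lies on chromosome 3 from 89979956 to 90008209 (plus strand) and had 387 to 453 counts in WT and 267 to 371 in KO. Its CPM was 14.1 and 12.8 in WT replicates 2 and 3, 17.6 in the unnumbered WT library, and 14.9, 13.5 and 9.99 in KO replicates 1, 2 and 3. The highest value was WT and the lowest KO, with the other 4 libraries mixed. The log2 fold change was -0.21 (95% interval -0.58 to 0.17, adjusted p = 0.723 from edgeR). Tpm3-rs7, a related sequence named after it, had 23 to 51 counts in the libraries, and how reads that fit both were counted is not given. Of the summed tropomyosin counts per kb, Tpm1 made up 54.9% ± 3.37 in WT and 53.9% ± 3.07 in KO, Tpm2 45.1% ± 3.35 and 46.1% ± 3.06, and Tpm3 0.0854% ± 0.0137 and 0.0646% ± 0.0133 (SD, n = 3 per genotype).

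Mybpc1 and Mybpc2, the slow and fast forms of myosin-binding protein C, had nearly the same small difference between genotypes. Mybpc1 (chromosome 10, 88354141 to 88441014, minus strand) had a CPM of 1095 and 1205 in WT replicates 2 and 3, 1129 in the unnumbered WT library, and 1144, 1192 and 1284 in KO replicates 1, 2 and 3. This was the tightest of the 10 genes in WT, with a coefficient of variation of 4.95%. Its log2 fold change was 0.078 (95% interval -0.25 to 0.40, adjusted p = 0.894 from edgeR). Mybpc2 (chromosome 7, 44151123 to 44174080, minus strand) had a CPM of 2804 and 2434 in WT replicates 2 and 3, 1951 in the unnumbered WT library, and 2112, 2639 and 2839 in KO replicates 1, 2 and 3. The groups overlapped almost fully, and the log2 fold change was also 0.078 (95% interval -0.33 to 0.49, adjusted p = 0.918 from edgeR). Mybpc1 made up 27.9% ± 3.93 of the summed counts per kb in WT and 27.7% ± 2.12 in KO (SD, n = 3 per genotype), a larger share of its family than Myoz2 and Tpm3 had of theirs. The antisense genes Gm44646 and Gm48752 share 192 exon bases with Mybpc2 and 252 with Mybpc1 and had 6705 to 10971 and 615 to 1920 counts. No handling of strand is given, so reads in those bases cannot be told apart.

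Ratios of paralogs within a library do not depend on how libraries are scaled, and are given without a test because the genes were chosen with earlier results known. The log2 ratio of Actn3 to Actn2 per kb was 3.48 and 2.91 in WT replicates 2 and 3, 2.62 in the unnumbered WT library, and 2.94, 3.68 and 3.80 in KO replicates 1, 2 and 3. Its mean was 0.47 higher in KO, close to the pooled SD of 0.45. For Myoz1 to Myoz2 the mean was 6.97 ± 0.414 in WT and 7.74 ± 0.745 in KO, and for Myoz3 to Myoz2 it was 3.61 ± 0.294 and 4.46 ± 0.786 (SD, n = 3 per genotype). In both, KO replicates 2 and 3 were above every WT library and KO replicate 1 was within the WT range. The ratio of Mybpc2 to Mybpc1 was 1.38 ± 0.286 in WT and 1.39 ± 0.151 in KO (SD, n = 3 per genotype).

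In the tropomyosin family, the log2 ratio of Tpm1 to Tpm3 was 9.34 ± 0.308 in WT and 9.72 ± 0.375 in KO (SD, n = 3 per genotype), and the groups overlapped. The ratio of Tpm2 to Tpm3 was 9.09 and 9.16 in WT replicates 2 and 3, 8.91 in the unnumbered WT library, and 9.25, 9.54 and 9.71 in KO replicates 1, 2 and 3. This was the single ratio of the 6 whose groups did not overlap, with a mean 0.45 higher in KO and a pooled SD of 0.19. Among all single genes tested, 15.4% did not overlap between the groups, and 1 of 6 ratios that share genes is near that share.

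**Figure D4:**
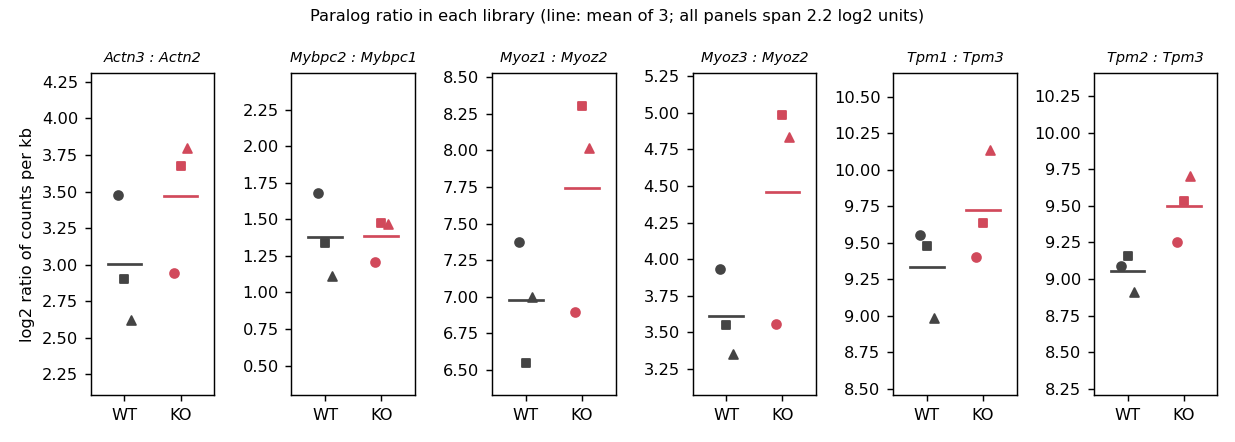
Log2 ratio of counts per kb of a paralog pair in each library (circle, square and triangle: WT replicates 2 and 3 and the unnumbered library in grey, KO replicates 1, 2 and 3 in red, lines at the mean of 3). The Tpm2 to Tpm3 panel alone shows all KO points above all WT points, and KO replicate 1 sits among the WT points in the panels with Myoz2.

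Other genes of the sarcomere and markers of fibers and cells were set beside the 10 genes by lists written from symbols. Over 92 tested genes of these lists, 4 passed the thresholds with edgeR, 1 higher and 3 lower in KO, a share near the 5.35% of all genes. With DESeq2, 11 of the 92 passed, 1 higher and 10 lower in KO, where 4.94% of all genes passed. With a library left out the count ran from 3 to 14, the highest without WT replicate 2 (6.21% of all genes). None of the 21 other Z-disc genes passed. By lowest unadjusted p, the named Z-disc genes were Sorbs2, an adaptor protein, with a log2 fold change of 0.51 (edgeR, adjusted p = 0.436), the PDZ-LIM protein Pdlim1 with -0.39 (adjusted p = 0.456) and palladin (Palld) with 0.24 (adjusted p = 0.650, all from edgeR). Sorbs2 passed at 0.69 without WT replicate 2. The Z-disc list had a median log2 fold change of -0.045, with 12 of 21 negative. Csrp3, a Z-disc stress sensor singled out after its values were seen, had a CPM of 121, 49.0 and 62.2 in WT replicates 2 and 3 and the unnumbered library. In KO replicates 1, 2 and 3 it was at 70.4, 3.26 and 12.7, so KO replicates 2 and 3 were low for Csrp3 as for Myoz2. Its log2 fold change was -1.43, and it passed at -3.26 without KO replicate 1 (edgeR, adjusted p = 0.398). Without that library 4 of the 21 Z-disc genes passed (Cryab, Csrp3, Flnc and Pdlim3), where 6.66% of all genes did. None passed without KO replicate 2 or 3. Flnc also passed with no filter and Pdlim3 with the replicate block. Cryab had 481 to 755 CPM in WT and 775, 169 and 364 in KO replicates 1, 2 and 3. Flnc had 490 to 639 CPM in WT and 579, 190 and 396 in those KO libraries.

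Thin filament genes, 7 of 8 tested, held none past the thresholds and had a median log2 fold change of 0.006. Nebulin (Neb), which spans the thin filament, was at 0.35 on the log2 scale, with an adjusted p of 0.606, and skeletal actin (Acta1) at -0.13, with 0.840 (both from edgeR). Cardiac actin (Actc1) was at 57.2 to 120 CPM in WT and 14.6 to 57.2 in KO (edgeR, adjusted p = 0.664). Titin, M-band and other thick filament genes, 8 of 10 tested, likewise held none before any setting was changed, with a median of 0.053. In that list the M-band proteins Myom2 and Myom3 were at 0.24 and -0.92 and Obsl1 at 0.17 (adjusted p = 0.671, 0.685 and 0.733 from edgeR). Myom3 had a CPM of 19.9 and 18.9 in WT replicates 2 and 3 and 15.5 in the unnumbered WT library, and 18.5, 6.08 and 4.19 in KO replicates 1, 2 and 3. KO replicates 2 and 3 were low and KO replicate 1 was within the WT range, as for Myoz2. Myom3 passed the thresholds at -1.82 without KO replicate 1 (edgeR, adjusted p = 0.00351) and at -1.94 with the replicate number as a block, which leaves out the same library and the unnumbered WT library (edgeR, adjusted p = 0.00517). Mybpc3, the cardiac myosin-binding protein C, was not tested, with a mean CPM of 0.0135 in WT and 0 counts in every KO library, which at 3 counts allows a CPM of up to 0.110 of the total counts.

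Calcineurin, the partner of the myozenins, its NFAT targets and its regulators (the Rcan genes and Cabin1) were measured by 12 genes. All were tested and none passed the thresholds. Their median log2 fold change was 0.17, with 3 of 12 negative, and it mixes genes of different roles. Nfatc2 was at 0.51 (adjusted p = 0.524), Cabin1 at 0.29 (adjusted p = 0.688) and Nfatc1 at 0.20 (adjusted p = 0.622, all from edgeR). Nfatc2 passed at 0.73 without WT replicate 3 and at 0.64 without KO replicate 3. Nfatc1 had libraries that did not overlap, with at most 17.4 CPM in WT and at least 18.9 in KO. The non-muscle paralogs Actn4, Tpm4 and Actn1 were at 0.32, 0.044 and -0.044 (adjusted p = 0.540, 0.962 and 0.966 from edgeR), and their summed CPM was 22.2 to 35.2 in WT and 28.6 to 30.7 in KO.

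The fast fiber markers had a summed CPM of 84161 to 105607 in WT and of 92234 to 106351 in KO, so the groups overlapped. The defining myosin of fast TA fibers, Myh4, was at 35536 CPM in WT. None of the 11 fast markers passed, and the median log2 fold change was 0.022, with Myh2, Myh1 and Myh4 at 0.24, 0.19 and 0.22 (adjusted p = 0.705, 0.745 and 0.751 from edgeR). Slow fiber markers, 8 genes, summed to only 46.3 to 124 CPM in WT and 44.1 to 57.8 in KO. None of the 8 passed with edgeR, while 7 were negative, with a median of -0.65, and the slow myosin Myh7 was at 0.16. DESeq2 on the same genes put 4 of the 8 past the thresholds (Atp2a2, Casq2, Tnnc1 and Tnni1), where 4.94% of all genes passed. Turning robust estimation off in edgeR also put 4 past them (Atp2a2, Tnnc1, Tnni1 and Tnnt1), where 919 of 15623 genes passed. All of these were lower in KO. Troponin C1 (Tnnc1) was at -1.39, the calcium pump Atp2a2 at -0.61 and troponin I1 (Tnni1) at -2.49 (adjusted p = 0.542, 0.580 and 0.593 from edgeR). Without WT replicate 3 they were at -0.72, -0.16 and -1.24, and none of the 8 passed, where 944 of 15964 genes did. Without WT replicate 2, 5 passed (Casq2, Myl3, Tnnc1, Tnni1 and Tnnt1), where 6.21% of all genes did. Tnnc1 alone passed without KO replicate 1 (6.66% of all genes). Atp2a2 alone passed without the unnumbered WT library (814 of 16105 genes). Both Atp2a2 and Tnnc1 passed with no filter, where 5.6% of all genes did (adjusted p = 0.0144 and 0.00722 from edgeR). They also passed with the replicate block, where 5.73% of all genes did (adjusted p = 0.343 and 0.597 from edgeR). The sum of slow markers was highest in WT replicate 3, which also had the highest Myoz2, whereas WT replicate 2, at 46.3, lay among the KO libraries. The part of slow fibers in the Myoz2 difference was not tested. In bulk muscle, fewer slow fibers and less of a transcript per fiber cannot be told apart.

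Of the developing fiber markers, 2 of 5 passed, both lower in KO, where 5.35% of all genes passed. They were the myogenic factor Myog at -1.27 (adjusted p = 0.299 from edgeR) and the fetal acetylcholine receptor subunit Chrng at -2.52 (adjusted p = 0.357 from edgeR). Chrng had 22 and 80 counts in WT replicates 2 and 3 and 20 in the unnumbered WT library. In KO replicates 1, 2 and 3 it had 13, 3 and 2, so its fold change rests on few counts. Dropping any gene that fell below 10 counts somewhere removed Chrng from testing. Myog was then the 1 call of 4 tested markers, where 666 of 13819 genes passed. DESeq2 (4.94% of all genes) and edgeR with robust estimation off (919 of 15623 genes) each put 4 of the 5 past the thresholds, adding Myh3 and Myl4. Myh3 had 51.6 to 121 CPM in WT and 12.2, 12.3 and 57.9 in KO replicates 1, 2 and 3 (adjusted p = 0.613 from edgeR). The third named, Myl4, was at -1.65 (adjusted p = 0.599 from edgeR), and the median of the 5 was -1.64. Without WT replicate 3, Chrng was at -1.63 and Myl4 at -0.54, both past the thresholds, and Myl4 passed at -2.05 without WT replicate 2. Myh8, the perinatal myosin, held nearly all counts of this list, with a mean CPM of 3551 in WT and 4276 in KO and a log2 fold change of 0.27. The list summed to 3029 to 4864 CPM in WT and 3658 to 4940 in KO, so the groups overlapped. Smooth muscle markers, 5 of 6 tested, held 1 gene past the thresholds, the myosin Myh11 at 0.83 (adjusted p = 0.331 from edgeR), beside Tagln at 0.27 and Lmod1 at 0.25 (adjusted p = 0.608 and 0.755 from edgeR). Their summed CPM was 33.8 to 51.2 in WT and 45.6 to 57.3 in KO, against 3487 or more for Tpm2 and 9500 or more for Tpm1. Smooth muscle also uses TPM1 and TPM2, and the part of its transcripts in those values was not tested.

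Leukocyte markers, all 6 tested, held 1 past the thresholds, the receptor Csf1r at -0.69 (adjusted p = 0.470), with Ptprc at -1.21 (adjusted p = 0.540) and Adgre1 at -1.11 (adjusted p = 0.634, all from edgeR). Csf1r no longer passed at -0.38 without WT replicate 3 or at -0.47 without KO replicate 2, and without WT replicate 3 Ptprc was at -0.39 and Adgre1 at -0.083. Without WT replicate 2, Ptprc and Adgre1 passed at -1.56 and -1.54. The list's sum was 15.4 to 57.9 CPM in WT and 11.9 to 23.2 in KO, with a median log2 fold change of -0.90. Of the 6 markers 5 were negative, while Cd68 was at 0.052 (adjusted p = 0.978 from edgeR). It had 2.15 to 5.53 CPM in WT and 2.49 to 5.92 in KO. Fibroblast markers, 5 of 5 tested and none past the thresholds, summed to 71.6 to 256 CPM in WT and 62.3 to 134 in KO, with a median of -1.04 and Col1a1, Col1a2 and Col3a1 at -1.25, -1.04 and -1.18 (adjusted p = 0.692, 0.735 and 0.741 from edgeR). The remaining fibroblast markers, Pdgfra and Dcn, were nearer to no difference, at -0.335 and -0.163 (adjusted p = 0.857 and 0.856 from edgeR). Without WT replicate 3 the same collagen genes were at -0.48, -0.28 and -0.27. WT replicate 3 was the highest for both sums, as it was for Myoz2, whose log2 fold change was -0.51 without that library. Their part in the Myoz2 difference was not tested. Of the cardiac markers, only Myh6 was tested, at 0.22 (adjusted p = 0.886 from edgeR), and Myl7 had 0 counts in every library.

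**Figure D5:**
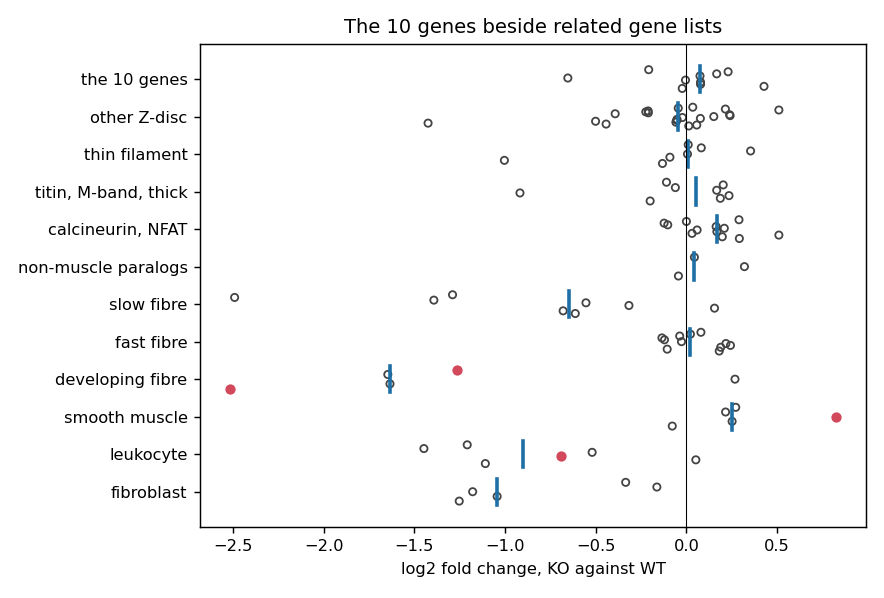
Log2 fold change of KO against WT for each tested gene of the 10 and of the related lists (open circles, filled red where the thresholds were passed, blue bar at the list median). The 10 genes centre at 0.076 with Myoz2 apart at -0.65, and the slow fiber markers centre at -0.65 while the fast ones centre at 0.022.

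Genes with the library pattern most like that of Myoz2 were found by the Euclidean distance of log2 CPM, centred on each gene's mean, over the 6 libraries, among 12804 other genes with a mean CPM of at least 1. The nearest were Phlda1 (distance 0.104), Azin1 (0.323), Plau (0.368), Loxl1 (0.398) and Olfm1 (0.409), with log2 fold changes of -0.60, -0.52, -0.61, -0.60 and -0.66 (adjusted p = 0.613, 0.625, 0.637, 0.606 and 0.600 from edgeR). None of them encodes a sarcomere protein. Among the other 9 members, Actn2 was the nearest to Myoz2 at 1.28, rank 2319, followed by Tpm3 at 1.30, rank 2507, and Actn3 the farthest at 2.18, rank 12129. For Tpm3 the nearest were 4930592A05Rik (distance 0.166), Rccd1 (0.177), Ten1 (0.205), Nckipsd (0.205) and Uqcc3 (0.222), with log2 fold changes of -0.19, -0.31, -0.19, -0.22 and -0.19 (adjusted p = 0.865, 0.659, 0.823, 0.789 and 0.720 from edgeR). Actn2 was the nearest member here too, at 0.370 and rank 164, and Myoz2 was the farthest at 1.30. The distance also reflects how far a gene's values swing between libraries, and not their order alone.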

How the data were processed

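The authors aligned paired-end reads of 6 TA libraries with Hisat2, counted them per gene with featureCounts and deposited raw counts for 55416 genes, without normalization, beside each gene's length. The labels name build GRCm39 and the study's methods GRCm38. Only 1494 of 52083 genes placed by GENCODE M21 on GRCm38 have the deposited position, so positions are given as deposited and promoter windows on GRCm38.p6, and the builds are not combined. Symbols were matched by Ensembl identifier for 52083 genes.

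Genes were kept with filterByExpr, scaled by TMM factors (0.893 to 1.20) and compared with edgeR's quasi-likelihood test with robust estimation (edgeR 4.0.16, R 4.3.3), with Benjamini-Hochberg adjustment over 15623 genes. A 95% interval is the log2 fold change and its standard error with the fit's degrees of freedom. DESeq2 (version 1.42.0), other filters and scalings, a replicate block and leaving out each library were alternatives. The steps were tested on simulated data. Replicates differed by more than sampling noise (chi-square per degree of freedom 21.0 to 79.2). Counting errors cover counting only.

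The members and lists were chosen with earlier results of these data known. Named genes were the 10 members, the genes of each list past the thresholds or, where fewer than 3, those with the lowest p up to 3, and the 5 nearest patterns of Myoz2 and Tpm3. Csrp3, Cryab, Flnc, Pdlim3, Lmod2, Mybpc3, Myl7, Myh3, Myh7, Myh8, Casq2, Myl3, Tnnt1, Pdgfra, Dcn and Cd68 lie outside this rule. They were named after their values were seen.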

Additional observations from a re-analysis of the deposited data

How the results depend on the processing

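The count of the 10 genes past the thresholds was 0 and became 1 with DESeq2, with no filter and with the replicate block, each time Myoz2, and 0 to 1 with a library left out. The count over all tested genes was 836 and became 1780 with no filter, and 814 to 1072 with a library left out. The count of genes with an adjusted p under 0.05 was 0 and became 45 with DESeq2, 363 with no filter and 24 with the replicate block. With a library left out it was 0 to 242, the highest without KO replicate 2. None of the 10 genes was among them in any alternative. The related lists had 4 of 92 tested genes (5.35% of all genes passed) and became 11 with DESeq2 (4.94%). They had 9 of 96 with no filter (5.6%), 12 with robust estimation off (919 of all 15623 genes) and 11 with the replicate block (5.73%). With a library left out the count was 3 to 14, the highest without WT replicate 2 (6.21%). The replicate block could use only the numbers 2 and 3, which leaves out KO replicate 1 and the unnumbered WT library. Its Myoz2 log2 fold change was -1.18 (adjusted p = 0.0781 from edgeR), beside -1.16 without KO replicate 1 alone, and over all alternatives that adjusted p ran from 0.0541 to 0.948. The numbers do not pair the mice in the labels, and the difference between numbers 2 and 3 in WT correlated with that in KO at -0.0285 across genes, which are not independent replicates. Under the block Myoz1 turned to 0.022 and Myoz3 to -0.006. With a library left out, Actn2 ran from -0.14 to 0.083, Mybpc2 from -0.050 to 0.21, Myoz1 from -0.079 to 0.061 and Myoz3 from -0.038 to 0.18, so their directions are not settled. So did Acta1 (-0.22 to 0.001), Tpm4 (-0.13 to 0.38), Actn1 (-0.26 to 0.16), Myh6 (-0.020 to 0.71), Myh7 (-0.34 to 0.57) and Ten1 (-0.31 to 0.010). Actn3, Mybpc1, Tpm1 and Tpm2 stayed positive and Myoz2 and Tpm3 negative in all 13 alternatives. All 6 paralog ratios moved by less than the pooled SD. Counting error was largest for Myoz2 and Tpm3, averaging 4.85% to 7.38% per library. It lay below the coefficients of variation between libraries, 18.9% in WT and 53.4% in KO for Myoz2 and 16.9% and 19.9% for Tpm3.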
